A study of Mus musculus with 6 samples.

Results

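The heat shock chaperones of the cytosol and the mitochondrion were described by their RNA in embryonic mouse pancreas and adult mouse islets. A gene was included when its symbol in the deposited table belonged to the HSP70 and HSP110, HSP90, J protein, small heat shock protein, mitochondrial chaperonin, CCT chaperonin, BAG or heat shock factor families. Hspa5, Dnajb9, Dnajb11, Dnajc3 and Dnajc10, which work in the lumen of the endoplasmic reticulum (ER), were left out by the same rule. This gave 82 of 37761 genes, of which 39 were J proteins, 13 HSP70 and HSP110 genes, 9 CCT genes, 8 small heat shock proteins, 6 BAG genes, 3 heat shock factors, 2 HSP90 genes and 2 mitochondrial chaperonin genes. RNA sequencing had been done on 3 libraries of whole pancreas dissected from wild-type embryos at e15.5, and on 3 libraries of islets that had been isolated with collagenase from wild-type mice aged 12 weeks. The labels do not tie libraries to separate animals, and the p-values below therefore rest on a spread between libraries that may be technical.

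Chaperones bind unfolded or partly folded proteins and release them for folding, assembly, transport across membranes or degradation. HSP70 does this in cycles of ATP hydrolysis that J proteins start and that nucleotide exchange factors, such as the HSP110 and BAG proteins, end. HSP90 acts later, on kinases, steroid receptors and other clients, with a set of co-chaperones. The chaperonins are closed chambers, CCT (also called TRiC) for actin, tubulin and other cytosolic proteins and Hspd1 with Hspe1 for mitochondrial ones. Heat shock factors are the transcription factors that bind heat shock elements and induce many of these genes when unfolded protein accumulates. Endocrine cells of the islet make and secrete hormones at a high rate, while the pancreas at e15.5 is a growing organ of epithelium, mesenchyme, vessels and nerves.

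The comparison is therefore between a whole growing organ and an isolated part of the adult organ. Tissue composition, age and the collagenase step differ together and cannot be told apart, nor can fewer cells of a type be told from less RNA per cell. Each library held between 35059950 and 47346870 reads on genes. The beta cell and mesenchyme lists followed the labels: all 8 beta cell markers were higher in islets, with summed normalized counts of 5503 to 10543 in embryonic pancreas and 3954960 to 4676050 in islets, and all 8 mesenchyme markers were lower, at 187566 to 209660 against 2678 to 5820. All 10 cell division markers were lower as well, at 98854 to 123034 against 3396 to 3504, and Hbb-y was the only marker of any list at 0 in every islet library. Other lists were mixed. Duct markers were 3 higher, 3 lower and 1 not called, with sums of 22135 to 30027 in embryonic pancreas and 41428 to 45395 in islets. Acinar markers were 5 higher, 4 lower and 1 not called. They summed to 95081 to 136656 in embryonic pancreas and, in islet libraries 1 to 3, to 348329, 694084 and 272083, so that islet library 2 stood apart. Embryonic library 3 also stood apart, with 0 reads in the row for low alignment quality where the other libraries had 1264897 to 2083120. Members with a near-identical copy elsewhere in the genome were low in that library: its value over the mean of embryonic libraries 1 and 2 had a median of 0.739 for 11 such genes (range 0.598 to 1.10) and of 0.899 for 60 other members (range 0.731 to 1.22), all with an embryonic mean of at least 100. The part of this difference in the results below was not tested, and results that rest on these libraries are also given without them.

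Of the 82 genes, 79 reached a normalized count of 10 in at least 3 libraries and were tested. In adult islets 38 of them were higher and 18 lower, and 23 did not pass the test (limma-trend on log2(normalized count + 1), adjusted p under 0.05 over all genes). These counts include Hspb9 and Dnajb7, which reached the minimum only in the group where they were higher. The filter thus fixed the direction of their calls. The 56 called genes were 70.9% of those tested, against 72.8% of the 21653 genes tested, a share near the background. The background was 36.2% higher and 36.6% lower, and the members were 48.1% higher and 22.8% lower. The libraries of the groups did not overlap in 60 members, 39 higher and 21 lower, and in 77.1% of all genes tested. On recovered reads, edgeR's quasi-likelihood test called 38 members higher and 23 lower, and 74.2% of all genes. The median log2 fold change was 0.19 over the members and -0.03 over all genes tested, and 25 members were at least 2-fold higher and 8 at least 2-fold lower. Without embryonic library 3 and islet library 2 the counts were 32 higher and 18 lower of 75 tested. When libraries were scaled on their reads without either group's 20 most abundant genes, the median over all genes moved to -0.27 and the split of calls was 32 higher and 28 lower, so the balance of directions depends on the scaling. The authors' deposited table gave an adjusted p under 0.05 to 35 of the 82 genes with a higher islet value and to 17 with a lower one, and to 53.3% of all genes with an adjusted p.

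The families did not move together. Family and list counts below stand beside an all-gene share of 72.8% called, 36.2% higher and 36.6% lower. Subunits of the CCT chaperonin, Hsp90ab1 with several of its co-chaperones and the mitochondrial chaperonin were lower in islets. Mitochondrial HSP70 with its J protein Dnaja3, the J proteins listed for the ER and several other J proteins were higher. So were the stress-inducible Hspa1a, Hspa1b, Bag3 and Hspb8. The abundant constitutive Hspa8 and the transcription factors Hsf1 and Hsf2 did not pass the test.

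**Figure D1:**
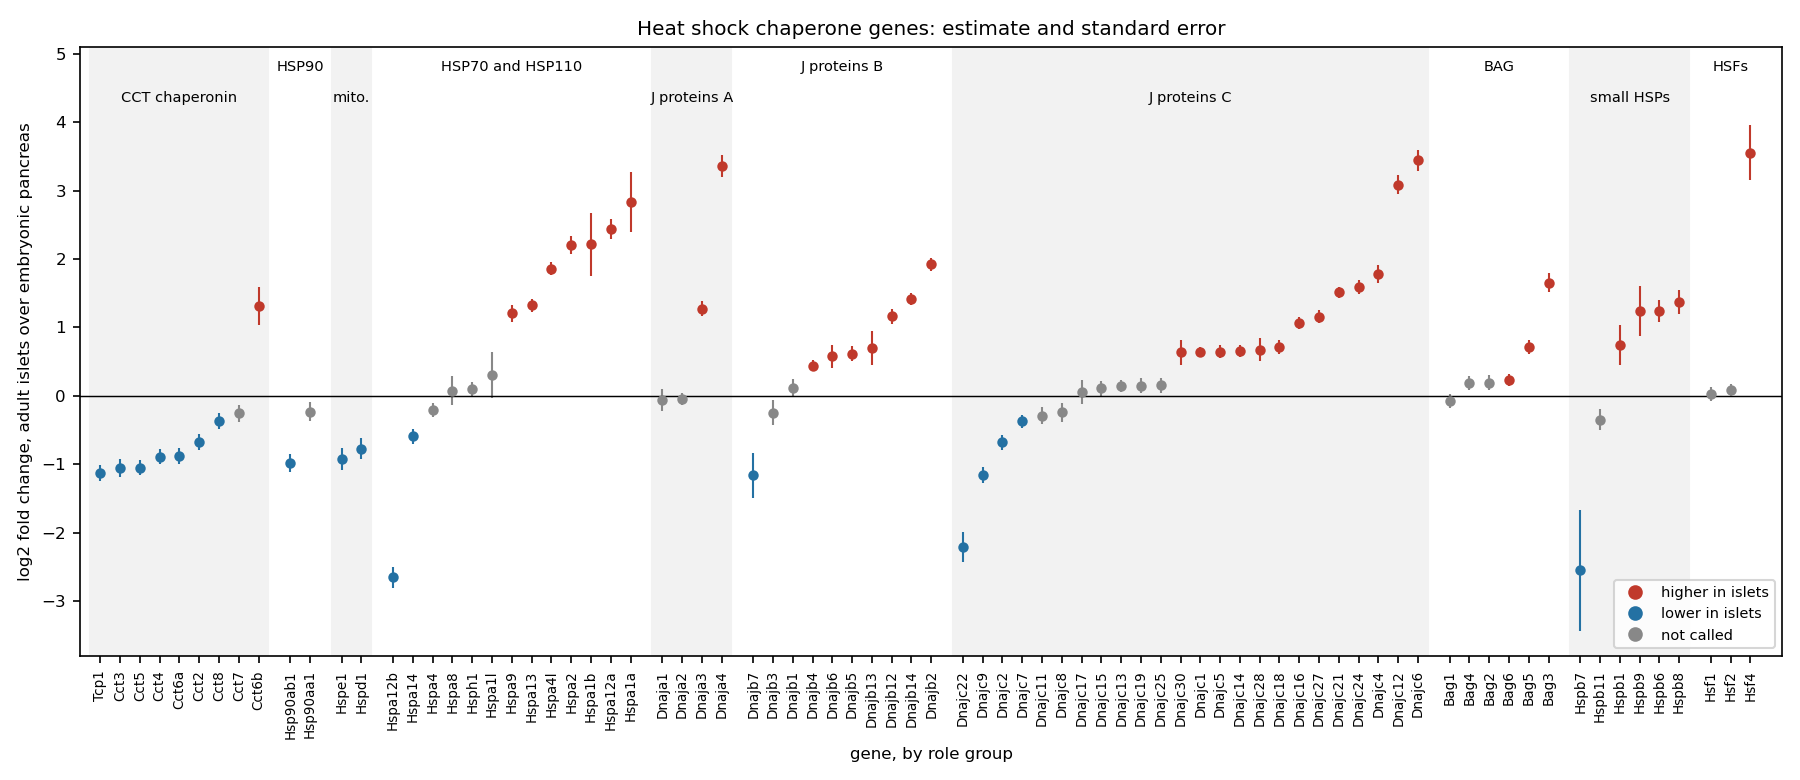
Log2 fold change (adult islets over embryonic pancreas, y axis) for the 79 tested heat shock chaperone genes, ordered by family along the x axis. Points are limma-trend estimates from 3 libraries a group, bars are 1 standard error and colour gives the call. The 7 lower CCT subunits lie between -1.13 and -0.37, while Dnajc6, Dnaja4 and Dnajc12 lie above 3.

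CCT is a double ring of 8 different subunits, encoded by Tcp1 and Cct2 to Cct8, with Cct6b as a form of Cct6a found mainly in testis. Of its 9 genes 7 were lower in islets, 1 was higher and 1 did not pass the test, with a median log2 fold change of -0.88 where all genes had -0.03. Tcp1 (chr17:12915701-12925067, plus strand, on GRCm38) had normalized counts of 13729, 16693 and 12251 in embryonic pancreas libraries 1 to 3 and 6432, 6665 and 6192 in islet libraries 1 to 3. Every islet library lay under every embryonic one, a 2.19-fold lower level (log2 -1.13, SE 0.12, limma adjusted p = 2.83e-05). Cct5 followed the same pattern, with 15586, 19610.0 and 15308 against 7815, 8321 and 8099 (log2 -1.05, SE 0.11, limma adjusted p = 3.22e-05). Cct3 had 11228, 14454 and 9778 against 5751, 5629 and 5459 (log2 -1.06, SE 0.14, limma adjusted p = 0.000109). In each of these genes embryonic library 2 was the highest and the islet libraries lay close together. Tcp1 shares 16.9% of its exonic length with Gm26130 and, on the other strand, Acat3 and Mrpl18. The part of these genes in its counts was not tested.

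The difference was smaller in the remaining subunits. Cct4 had 10429.5, 12401 and 9255 in embryonic pancreas and 5560.3, 5985 and 5655 in islets (log2 -0.89, limma adjusted p = 0.000104). Cct6a had 12887, 16694 and 12856 against 7491, 7830.4 and 7566 (log2 -0.88, limma adjusted p = 0.000123). Cct2 had 12354, 16506 and 12985 against 8681, 8819 and 8590.3 (log2 -0.67, limma adjusted p = 0.000769). The groups did not overlap in any of them. Cct6a shares 15.3% of its exonic length with Snora15 and, on the other strand, Psph.

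At the small end stood Cct8 and Cct7. Cct8 had 9766, 10763 and 8174 against 7496, 7662 and 6937 (log2 -0.37, limma adjusted p = 0.0157), and its call was lost without embryonic library 1 (limma adjusted p = 0.0535) or without islet library 3 (0.0606). Cct7, with 9157, 11077 and 7849 against 7611, 7748 and 7944, had overlapping groups and did not pass the test (log2 -0.25, limma adjusted p = 0.0924). Its near-identical copy matches over only 209 of its 1632 coding bases. Without embryonic library 3, its lowest embryonic value, Cct7 was called lower (log2 -0.37, limma adjusted p = 0.0118), which gave 8 lower CCT genes. The 1 higher gene was Cct6b, at a level where single reads count, with 13.4, 15.7 and 11.4 against 31.9, 33.7 and 39.7 (log2 1.32, limma adjusted p = 0.00226).

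Per kilobase of the longest transcript, the subunits of the ring lay within 2.24 to 2.57-fold of one another in the embryonic libraries and within 1.87 to 1.98-fold in the islet libraries. Cct5 was the highest of them in embryonic pancreas, at a mean of 9085 normalized counts per kilobase, and Cct7 the lowest at 3835. In islets Cct2 at 4439 and Cct5 at 4360 led, and Cct4 at 2308 was lowest. Among 11 genes of prefoldin, the chaperone that delivers actin and tubulin chains, and other CCT partners, 4 were higher, 2 lower and 5 not called, with a median log2 of 0.07. The lower calls among them depended on the processing, with 6 under quantile normalization, 5 with scaling outside the 20 most abundant genes and 4 by edgeR. Pfdn1 was lower, at 2348 ± 343 (mean ± SD, n = 3) against 1444 ± 3.77 (log2 -0.69, limma adjusted p = 0.000405), as was Pdcl3 (log2 -0.32, limma adjusted p = 0.048), while Pdrg1 (log2 0.66, limma adjusted p = 0.000604) and Pdcl (log2 0.50, limma adjusted p = 0.00241) were higher. The lower CCT values stood beside the lower cell division markers given above, and the part of dividing cells in them was not tested.

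**Figure D2:**
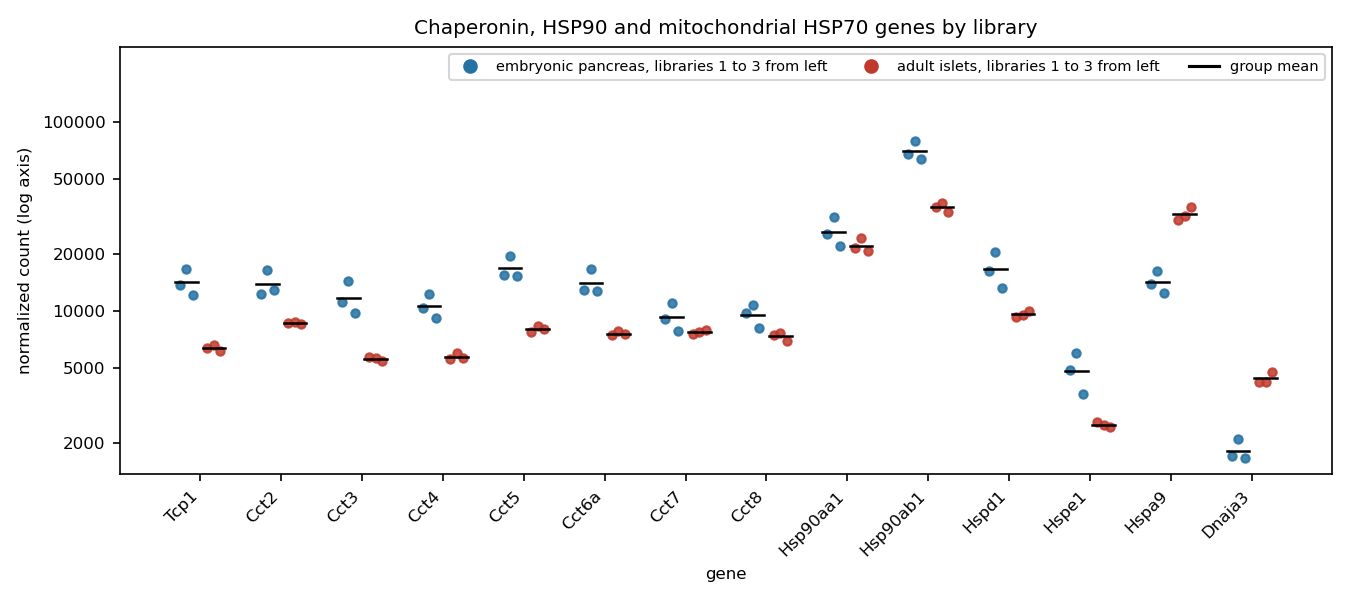
Normalized count per library (log axis) of the CCT subunits, the HSP90 genes, the mitochondrial chaperonin genes Hspd1 and Hspe1, and mitochondrial HSP70 (Hspa9) with its J protein Dnaja3. Points are the 3 libraries of each group, in the order 1 to 3 from the left, and lines are group means. Hspa9 and Dnaja3 are higher in every islet library, and Tcp1, Cct2 to Cct6a, Cct8, Hsp90ab1, Hspd1 and Hspe1 lower.

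Cytosolic HSP90 comes as the constitutive Hsp90ab1 and the more inducible Hsp90aa1. Hsp90ab1 (chr17:45567775-45573271, minus strand) was at 67803, 79163 and 63749 in embryonic pancreas libraries 1 to 3 and at 35679.6, 37136 and 33499.5 in islet libraries 1 to 3. No islet library reached the embryonic range, and the level was 1.98-fold lower (log2 -0.98, SE 0.13, limma adjusted p = 0.000145). Hsp90aa1 (chr12:110690605-110702728, minus strand) was at 25520.5, 31332 and 22086 and 21664, 24269 and 20748, with overlapping groups, and did not pass the test (log2 -0.23, SE 0.14, limma adjusted p = 0.172). Hsp90aa1 has 3 near-identical copies, and without embryonic library 3 it was called lower (log2 -0.35, limma adjusted p = 0.0377). Within a library, Hsp90aa1 had 0.376, 0.396 and 0.346 times the normalized count of Hsp90ab1 in embryonic pancreas and 0.607, 0.654 and 0.619 times in islets. This ratio does not depend on scaling, and its groups did not overlap (log2 difference 0.75, exact permutation p = 0.1, the smallest that 3 against 3 can give, and 0.18 after Benjamini-Hochberg adjustment over 9 ratios).

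Co-chaperones steer HSP90 through its cycle. Of 17 co-chaperone genes 4 were higher, 8 lower and 5 not called, with a median log2 of -0.47. The called share was 70.6%, near the 72.8% of all genes tested. Ppid, a cyclophilin bound to HSP90, fell most steeply, from 4283, 4911 and 3579 to 1974, 1977 and 2103 (log2 -1.07, SE 0.12, limma adjusted p = 3.77e-05). Stip1, which links HSP70 to HSP90, was at 6736, 8758 and 6471 against 4249.9, 3988 and 3927 (log2 -0.84, SE 0.12, limma adjusted p = 0.000215). The kinase adaptor Cdc37 (log2 -0.52), the ATPase activators Ahsa1 (log2 -0.74) and Ahsa2 (log2 -0.78), Fkbp4 (log2 -0.54), Sugt1 (log2 -0.56) and Nudc (log2 -0.62) were the other lower members. Fkbp5, a glucocorticoid-induced immunophilin, was higher, from 1484 ± 187 to 3049 ± 101 (log2 1.05, limma adjusted p = 1.74e-05). Unc45a, a myosin chaperone, was higher as well, from 962 ± 123 to 2457 ± 74.1 (log2 1.36, limma adjusted p = 3.96e-06). Ppp5c and Cdc37l1 completed the higher members (log2 0.59 and 0.52), and the 5 others, among them Ptges3 and Chordc1, did not pass the test.

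In the mitochondrial matrix 2 systems fold imported protein: the chamber of Hspd1 (HSP60) with its lid Hspe1 (HSP10), and the HSP70 Hspa9 (mortalin), which also pulls chains through the import pore. They differed in opposite directions. Hspd1 had 16425, 20486 and 13224 in embryonic pancreas and 9329, 9537 and 10034 in islets (log2 -0.77, SE 0.15, limma adjusted p = 0.00138). Hspe1 had 4912, 6002 and 3634 and 2585, 2508 and 2449 (log2 -0.92, SE 0.16, limma adjusted p = 0.000772). Both were lower in every islet library than in any embryonic one. Without embryonic library 3, where both were lowest among the embryonic libraries and each has a near-identical copy, the log2 values were -0.93 and -1.11.

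Hspa9 was at 13873, 16289 and 12454 in embryonic pancreas and 30542, 31949 and 35450.1 in islets, with every islet value above every embryonic one (log2 1.21, SE 0.12, limma adjusted p = 2.63e-05). Dnaja3 (Tid1), the matrix J protein that serves it, had 1711, 2113 and 1676 and 4208, 4244 and 4784 (log2 1.27, SE 0.11, limma adjusted p = 7.85e-06). The normalized count of Hspa9 was 0.845, 0.795 and 0.942 times that of Hspd1 in embryonic pancreas and 3.27, 3.35 and 3.53 times in islets. Per kilobase of transcript the mean ratios were 0.684 and 2.69. This ratio was taken after the values had been seen, and its groups did not overlap (log2 difference 1.98, exact permutation p = 0.1). The ratio of Hspd1 to Hspe1, in contrast, was 3.34, 3.41 and 3.64 in embryonic pancreas and 3.61, 3.80 and 4.10 in islets, with overlapping groups (log2 difference 0.15, exact permutation p = 0.2).

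Over the 9 members that work in mitochondria 4 were higher, 2 lower and 3 not called. The J proteins Dnajc28 and Dnajc30 were higher at low levels (log2 0.68 and 0.63, limma adjusted p = 0.00527 and 0.0133). Dnajc30 shares 26.2% of its exonic length with Bud23, and reads there cannot be assigned without strand. Dnajc15 and Dnajc19, both of the import motor, had log2 values of 0.11 and 0.15 and Dnajc11 of -0.29, and none of them passed the test. Without embryonic library 2 Dnajc15 and Dnajc19 were called higher (limma adjusted p = 0.0362 and 0.0263), and without embryonic library 1 Dnajc11 was called lower (0.0204). Of 15 other mitochondrial chaperones and proteases 9 were higher, 3 lower and 3 not called, with a median log2 of 0.40. The called share was 80%, against 72.8% of all genes tested. The matrix protease Lonp1 had 2835, 3809.5 and 2958 against 8591, 9049 and 9251 (log2 1.50, SE 0.12, limma adjusted p = 4.36e-06) and Clpx, the unfoldase of the Clp protease, 2039.7 ± 304 against 4137 ± 108 (log2 1.03, limma adjusted p = 3.18e-05). Grpel1 and Grpel2, exchange factors of Hspa9, were also higher (log2 0.29 and 0.62, limma adjusted p = 0.0305 and 0.000521). Lower were Htra2, a protease of the intermembrane space, with 583 ± 68.8 against 235 ± 16.5 (log2 -1.30, limma adjusted p = 2.11e-05), Trap1, the mitochondrial HSP90, with 3207 ± 398 against 1769 ± 49.5 (log2 -0.85, limma adjusted p = 6.16e-05), and the import motor subunit Timm44 (log2 -0.49).

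Hspd1 and Hspe1 lie head to head on chromosome 1 and share a promoter. The RefSeq windows of 300 bases around their starts (GRCm38.p6) overlap by 285 bases and hold a heat shock element. The element searched was 3 units in a row, GAA then TTC then GAA with any 2 bases between neighbouring units, on either strand, in windows from 250 bases before to 50 after each start. It occurred in 4 of the 65 members with a window (6.15%) and in 179 of 27025 genes (0.662%). Members without a window, among them Hspa8, Hsp90aa1, Hsp90ab1, Hspa9 and Hsf1, were not searched. Elements with a mismatch in a unit were not searched either, so a gene without a match may still hold one. Hspd1 and Hspe1 are counted as 2 genes but hold the same element. Those 4 were Hspd1 and Hspe1, which fell, Dnajb6, which was higher, and Hsph1, which did not pass the test, so the 4 genes did not change in 1 direction. The shorter element GAANNTTC or TTCNNGAA, part of the longer one, occurred in 27.7% of the members and 16.97% of all genes. The 30 bases around each match are shown because no other of the 65 members held the full element, with its letters in capitals. They are read on the strand of the gene named, and for the shared promoter on that of Hspe1, since Hspd1 lies on the minus strand.

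Hspe1 and Hspd1 (chr1:55088053-55088082, plus strand): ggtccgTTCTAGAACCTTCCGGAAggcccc

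Dnajb6 (chr5:29735844-29735873, plus strand): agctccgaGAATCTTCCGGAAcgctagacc

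Hsph1 (chr5:149636279-149636308, minus strand): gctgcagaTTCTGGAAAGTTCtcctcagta

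The capitals in the shared promoter span 18 bases because 2 matches overlap there, and begin 89 bases before the start of Hspe1. In Dnajb6 they begin 46 bases before the start, and in Hsph1 they lie after it. A match is a description of the letters, not evidence of binding.

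HSP70 in the cytosol is carried mainly by Hspa8 (HSC70), the constitutive form. Hspa8 (chr9:40800984-40810087, plus strand) had 49893, 59772 and 32772 in embryonic pancreas and 51602, 48756 and 45163 in islets, and did not pass the test (log2 0.07, SE 0.21, limma adjusted p = 0.772). Embryonic library 3 was the lowest of the 6 libraries, and Hspa8 has 7 near-identical copies. Without that library the log2 was -0.17 (limma adjusted p = 0.297), and with quantile normalization it was -0.64, which passed the test, so no direction is given for it.

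The inducible HSP70 genes Hspa1a and Hspa1b were both higher in islets, with the 3 islet libraries far apart. Hspa1a (chr17:34969190-34972156, minus strand) had 41.3, 49.0 and 58.1 in embryonic pancreas and 473, 591 and 159.9 in islets (log2 2.83, SE 0.44, limma adjusted p = 0.000349). Hspa1b (chr17:34956436-34959238, minus strand) had 118, 134 and 138 and 827, 1072 and 250.004 (log2 2.21, SE 0.46, limma adjusted p = 0.00211). In both genes islet library 3 was the lowest islet value, still above every embryonic library, and without it the log2 values were 3.41 and 2.85. The coding sequences are 99.5% identical over 1926 bases, so reads may be split between them, and 19.0% of the exonic length of Hspa1a overlaps Gm20481 on the other strand. Taken as a sum, Hspa1a and Hspa1b together had 0.00320, 0.00305 and 0.00599 times the normalized count of Hspa8 in embryonic pancreas and 0.0252, 0.0341 and 0.00908 times in islets (log2 difference 2.35, exact permutation p = 0.1, adjusted 0.18). Per kilobase of transcript the mean ratio was 0.00343 in embryonic pancreas and 0.0191 in islets.

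The 250 bases before the starts of Hspa1a and Hspa1b (RefSeq, GRCm38.p6) are shown because the genes changed together and their upstream sequence differs at only 3 of 250 positions. Capitals mark the match to GAANNTTC, which begins 104 bases before the start in both.

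Hspa1a (chr17:34972157-34972406, minus strand): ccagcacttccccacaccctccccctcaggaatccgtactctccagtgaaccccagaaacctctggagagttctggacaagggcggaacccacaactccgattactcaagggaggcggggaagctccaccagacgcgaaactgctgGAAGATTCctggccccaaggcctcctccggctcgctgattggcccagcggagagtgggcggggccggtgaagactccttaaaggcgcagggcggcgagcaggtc

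Hspa1b (chr17:34959239-34959488, minus strand): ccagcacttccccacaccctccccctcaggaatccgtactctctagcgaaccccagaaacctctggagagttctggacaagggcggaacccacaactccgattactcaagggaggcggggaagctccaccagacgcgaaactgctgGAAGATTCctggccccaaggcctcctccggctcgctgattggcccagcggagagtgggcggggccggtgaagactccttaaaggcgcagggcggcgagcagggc

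Across the 13 HSP70 and HSP110 genes 7 were higher, 2 lower and 4 not called, a called share of 69.2% against 72.8% of all genes. Several of the higher ones had tight libraries. Hspa12a, a distant HSP70 relative, had 269.9, 202 and 271 against 1223, 1337 and 1467 (log2 2.44, SE 0.14, limma adjusted p = 6.48e-07). Hspa2, best known for its part in male meiosis, had 248, 338 and 266 against 1323, 1367 and 1219 (log2 2.21, SE 0.13, limma adjusted p = 8.31e-07). Hspa13, a microsomal HSP70, had 3592, 4081 and 3525 against 9402, 8662 and 9882 (log2 1.32, SE 0.09, limma adjusted p = 2.14e-06). In none of these did the groups overlap.

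The steepest fall of any member was in Hspa12b (chr2:131127280-131146321, plus strand), an HSP70 relative known from endothelium, with 530.2, 425 and 466 in embryonic pancreas and 70.3, 73.4 and 79.4 in islets (log2 -2.65, SE 0.15, limma adjusted p = 6.28e-07). Of 6 endothelial markers 4 were lower and 2 not called, none was at 0, and their sum was 12678 to 14179 in embryonic pancreas and 7026 to 9443 in islets. The part of endothelial cells in the fall of Hspa12b was not tested. Hspa14, which binds the ribosome in complex with Dnajc2, had 1766, 2266 and 1830.0 against 1312, 1287 and 1259.7 (log2 -0.59, SE 0.11, limma adjusted p = 0.000909), and Dnajc2 fell beside it, from 3094, 3858 and 2998 to 1964, 2177 and 2044 (log2 -0.68, SE 0.11, limma adjusted p = 0.000466). Hspa1l had between 12.3 and 26.4 in any library, shared 71.9% of its exonic length with Gm10501 and did not pass the test.

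The HSP110 proteins, which exchange nucleotide on HSP70, differed among themselves. Hspa4l (chr3:40744495-40796103, plus strand) had 993, 1149 and 959 in embryonic pancreas and 3602, 3919 and 3715 in islets, a 3.63-fold higher level (log2 1.86, SE 0.09, limma adjusted p = 2.7e-07). Hspa4 had 12669.5, 15474 and 12886 and 11502, 11916 and 12057 (log2 -0.20, limma adjusted p = 0.1) and the heat-inducible Hsph1 3239, 2943 and 2586 and 3138, 3353 and 2878 (log2 0.10, limma adjusted p = 0.417), and neither passed the test. The ratio of Hspa4l to Hspa4 was 0.0784, 0.0742 and 0.0744 in embryonic pancreas and 0.313, 0.329 and 0.308 in islets (log2 difference 2.06, exact permutation p = 0.1, adjusted 0.18). The ratio of Hspa4 to Hsph1 overlapped between groups (log2 difference -0.30, exact permutation p = 0.2). Of 9 other HSP70 partners 5 were higher, 1 lower and 3 not called. Sil1, the exchange factor for HSP70 in the ER, had 1352 ± 194 against 3469 ± 254 (log2 1.37, limma adjusted p = 6.76e-06) and Stub1, the ubiquitin ligase that marks HSP70 clients, 835 ± 142 against 1309 ± 57.7 (log2 0.66, limma adjusted p = 0.0016). The lower gene was Hspbap1 (log2 -0.33, limma adjusted p = 0.0285).

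**Figure D3:**
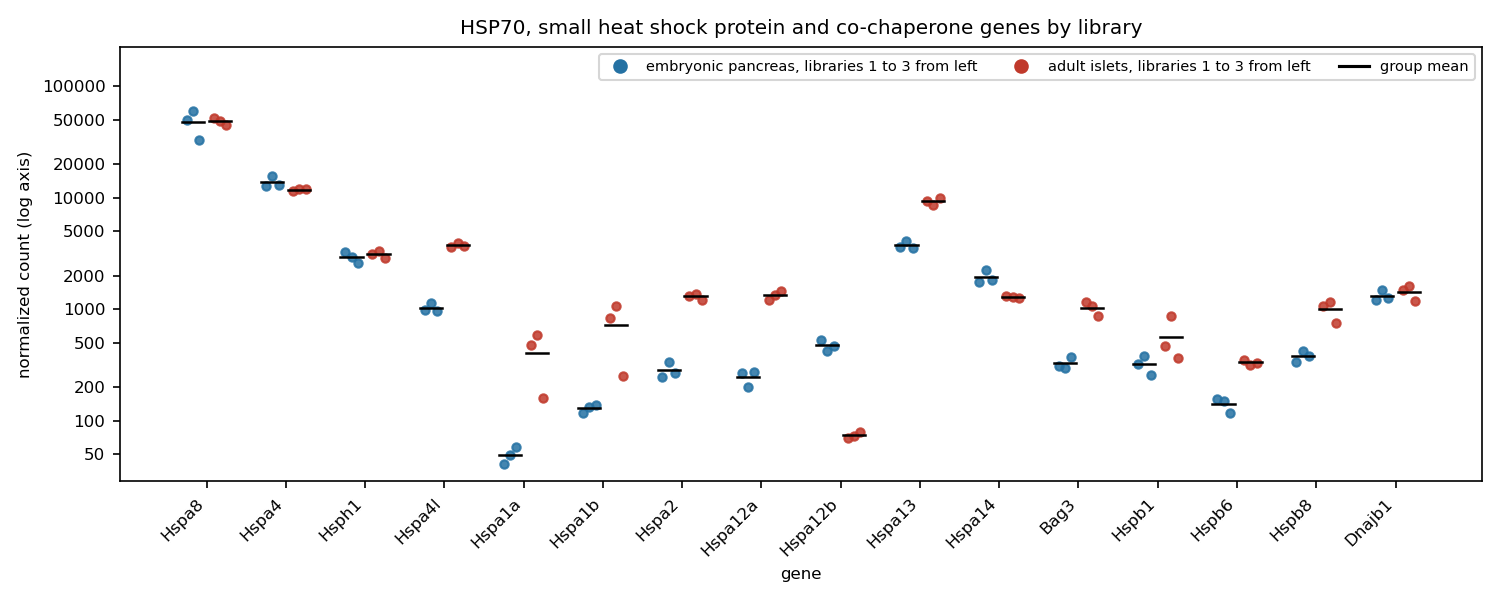
Normalized count per library (log axis) of HSP70 and HSP110 genes, Bag3, 3 small heat shock proteins and Dnajb1. Points are the 3 libraries of each group in the order 1 to 3 from the left, and lines are group means. Islet library 3 lies lowest of the islet libraries in Hspa1a, Hspa1b, Bag3, Hspb1, Hspb8 and Dnajb1. It is also the lowest in Hspa8, Hsph1, Hspa2 and Hspa14, and not in the other genes shown.

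J proteins carry a J domain that stimulates HSP70 and set where it acts. Of 39 J protein genes 38 were tested, and 22 were higher in islets, 5 lower and 11 not called, with a median log2 of 0.62. The called share was 71.1%, near the 72.8% of all genes tested. Of the J proteins 57.9% were higher and 13.2% lower, against 36.2% and 36.6% of all genes. The steepest rise was in Dnajc6 (chr4:101496648-101642799, plus strand), auxilin, which strips clathrin from coated vesicles and is known from neurons. Its normalized counts were 327, 449 and 303 in embryonic pancreas and 3558, 3799.7 and 4246 in islets, a 10.9-fold higher level (log2 3.44, SE 0.15, limma adjusted p = 1.22e-07). Dnajc12 (chr10:63382443-63410576, plus strand), a co-chaperone of the aromatic amino acid hydroxylases, had 266, 379.8 and 276 and 2656, 2482 and 2608, 8.48-fold higher (log2 3.08, SE 0.14, limma adjusted p = 1.46e-07). In both genes the lowest islet library was several times the highest embryonic one.

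Dnaja4 (chr9:54698873-54716315, plus strand), a cytosolic J protein, had 134, 205 and 145 and 1559.8, 1610.3 and 1719, 10.2-fold higher (log2 3.36, SE 0.16, limma adjusted p = 2.14e-07). It shares 44.1% of its exonic length with Wdr61 on the other strand, and without strand the reads of the shared part cannot be told apart. Dnaja1 and Dnaja2, of the same class, did not pass the test. Dnaja1 had 6294, 6162 and 4016 against 5081, 5248 and 5078 (log2 -0.07, limma adjusted p = 0.723) and Dnaja2 4616, 4862 and 4124 against 4193, 4429 and 4512 (log2 -0.05, limma adjusted p = 0.642), with overlapping groups in both. Dnaja1 has 3 near-identical copies, and without embryonic library 3 it was called lower (log2 -0.28, limma adjusted p = 0.0198). The ratio of Dnaja1 to Dnaja2 overlapped between the groups (log2 difference -0.02, exact permutation p = 1).

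Of the 10 tested class B genes 7 were higher, 1 lower and 2 not called. Dnajb2, a J protein that binds ubiquitin and is enriched in neurons, had 395, 378 and 335 in embryonic pancreas and 1446, 1357 and 1388 in islets (log2 1.92, SE 0.10, limma adjusted p = 3.33e-07). Dnajb6, which holds back the aggregation of polyglutamine proteins, had 2224, 2519.9 and 1521 and 2989, 3061 and 3097 (log2 0.58, SE 0.17, limma adjusted p = 0.0119), with embryonic library 3 the lowest and 5 near-identical copies in the genome. Without that library its log2 was 0.36 (limma adjusted p = 0.00800). Dnajb5 (log2 0.61) and Dnajb4 (log2 0.44) were higher by less. Dnajb1, the heat-inducible partner of cytosolic HSP70, had 1203, 1489 and 1249 and 1489, 1619 and 1180.3 and did not pass the test (log2 0.12, limma adjusted p = 0.464). The ratio of Dnajb1 to Dnajb6 was 0.541, 0.591 and 0.821 in embryonic pancreas and 0.498, 0.529 and 0.381 in islets (log2 difference -0.46, exact permutation p = 0.1, adjusted 0.18). Without embryonic library 3, where the ratio was highest, the log2 difference was -0.28. Dnajb13 (log2 0.70, called higher), Dnajb7 (log2 -1.17, called lower) and Dnajb3 (log2 -0.25, not called) were low in all libraries, and Dnajb8 was not tested. Dnajb7 reached the minimum of 10 only in the embryonic libraries, so the filter fixed its direction. Dnajb13 lost its call without embryonic library 1 (limma adjusted p = 0.0912) or any 1 of the islet libraries (0.0570 to 0.0772).

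The members listed here for the ER or its membrane, 5 J proteins and Hspa13, were all higher in islets. Their log2 values ran from 0.64 to 1.41, with a median of 1.11. Dnajb14 and Dnajb12 bring cytosolic HSP70 to the ER membrane for the degradation of misfolded membrane proteins. Dnajb14 had 1725, 1706 and 1915 against 4517, 4567 and 5134 (log2 1.41, SE 0.09, limma adjusted p = 1.07e-06). Dnajb12 had 1317, 1722 and 1391 against 3182, 3256 and 3435 (log2 1.16, SE 0.11, limma adjusted p = 1.44e-05). Dnajc16 (log2 1.06), Dnajc18 (log2 0.71), Dnajc1 (log2 0.64) and the HSP70 gene Hspa13, given above, were the other 4. The 5 ER genes that the rule leaves out were also all higher, from Dnajc10 at log2 0.57 and Dnajb11 at 0.80 through Hspa5 (BiP) at 1.31 and Dnajc3 at 1.53 to Dnajb9 at 4.24. The list of ER members may not be complete, as Dnajc14 (log2 0.65, higher) and Dnajc25 (log2 0.15, not called) were left off it.

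J proteins of vesicle and membrane traffic were higher in 3 of 4 cases. Dnajc5, the cysteine string protein of synaptic and secretory vesicles, had 4803, 5833 and 4929.8 in embryonic pancreas and 8168, 8162 and 7894 in islets (log2 0.64, SE 0.09, limma adjusted p = 0.000255). Dnajc27, a Rab-like GTPase with a J domain, had 556, 577 and 543 against 1220.4, 1163 and 1362 (log2 1.16, SE 0.10, limma adjusted p = 6.31e-06). Dnajc13, which acts on endosomes, had 5118, 4830.0 and 5276 against 5399, 5418 and 5999 and did not pass the test (log2 0.14, limma adjusted p = 0.149). Together with Dnajc6 these genes had a median log2 of 0.90.

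Among 6 members that act on ribosomes, splicing or histones 1 was higher, 3 were lower and 2 were not called. Dnajc9, which hands over histones H3 and H4, had 2843, 3556 and 2675 against 1236, 1374 and 1434 (log2 -1.16, SE 0.12, limma adjusted p = 2.65e-05), in libraries whose cell division markers were lower as given above. The part of dividing cells in this difference was not tested. Dnajc21, which takes part in making the large ribosomal subunit, went the other way, with 704, 706 and 666 against 1962, 2022 and 1952 (log2 1.51, SE 0.08, limma adjusted p = 3.61e-07). Dnajc2 and Hspa14 were lower, as given above, and the splicing-related Dnajc8 (log2 -0.24) and Dnajc17 (log2 0.06) did not pass the test. Without embryonic library 3 Dnajc8 was called lower (log2 -0.36, limma adjusted p = 0.0301), which gave 4 lower genes.

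Of the remaining class C genes, Dnajc4 had 151, 185 and 159 against 591, 544 and 565 (log2 1.78, SE 0.13, limma adjusted p = 2.68e-06), and Dnajc24, which is needed to make diphthamide on elongation factor 2, had 384, 444 and 389 against 1215, 1189.9 and 1259 (log2 1.59, SE 0.10, limma adjusted p = 9.95e-07). Dnajc22 (chr15:99093170-99104737, plus strand) fell most among the J proteins, from 349, 572 and 339 to 79.1, 96.2 and 86.9, a 4.63-fold lower level (log2 -2.21, SE 0.22, limma adjusted p = 2.18e-05). Dnajc7, which binds HSP70 and HSP90 through its TPR repeats, had 2309, 1998 and 1852 against 1564, 1556 and 1618 (log2 -0.37, limma adjusted p = 0.00741). Dnajc14, which shares 19.9% of its exonic length with other genes, was higher (log2 0.65). Dnajc25 did not pass the test (log2 0.15).

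**Figure D4:**
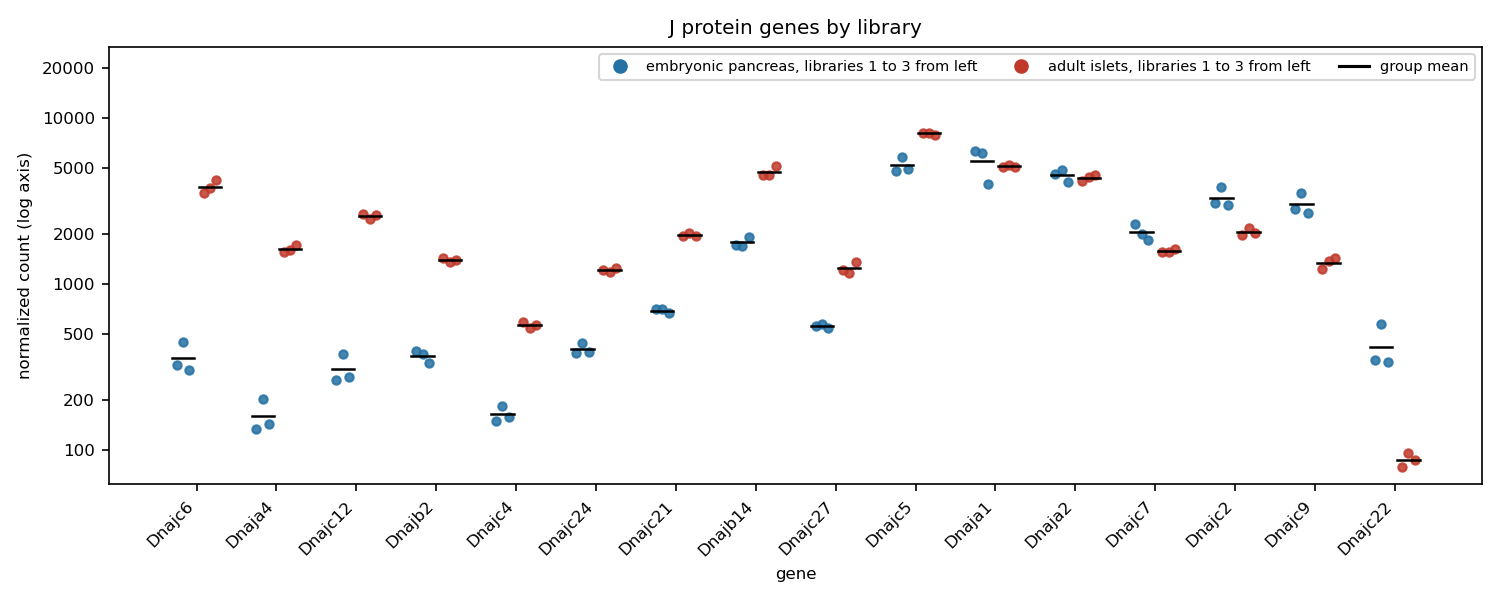
Normalized count per library (log axis) of 16 J protein genes, from those higher in islets on the left to those lower on the right. Points are the 3 libraries of each group in the order 1 to 3 from the left, and lines are group means. The islet and embryonic libraries are separate in all genes shown except Dnaja1 and Dnaja2.

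BAG proteins release nucleotide and client from HSP70. Bag3, which is induced by HSF1 and sends clients to autophagy with Hspb8, had 313, 297 and 373 in embryonic pancreas and 1168, 1071 and 871 in islets (log2 1.65, SE 0.14, limma adjusted p = 7.81e-06). Bag5 was higher too, with 1020.1, 1192 and 958 against 1677, 1824 and 1662 (log2 0.71, SE 0.10, limma adjusted p = 0.000239). Bag1, which links HSP70 to the proteasome, had 3123, 3982 and 3097 against 3168, 3259 and 3185 and did not pass the test (log2 -0.08, limma adjusted p = 0.544). The ratio of Bag3 to Bag1 was 0.1003, 0.0747 and 0.120 in embryonic pancreas and 0.369, 0.329 and 0.274 in islets (log2 difference 1.73, exact permutation p = 0.1, adjusted 0.18). Bag6, which guards tail-anchored proteins, was called higher (log2 0.23, limma adjusted p = 0.0297), but its log2 was -0.03 with quantile normalization and -0.0042 with scaling outside the most abundant genes, and its call was lost when any 1 library other than embryonic library 2 was left out (limma adjusted p = 0.0527 to 0.110). Bag2 and Bag4 did not pass the test, but were called higher without embryonic library 2 (limma adjusted p = 0.0142 and 0.0227).

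Small heat shock proteins hold unfolded protein without ATP. Hspb8, the partner of Bag3, had 335, 426 and 383 in embryonic pancreas and 1069, 1167 and 759.7 in islets (log2 1.37, SE 0.17, limma adjusted p = 9.14e-05). Hspb6 had 157, 151 and 118 against 352, 319 and 329 (log2 1.24, SE 0.16, limma adjusted p = 0.000103). Both kept their groups apart. Hspb1 (HSP25), the widely expressed inducible form, had 322, 379.8 and 259 against 472, 866 and 363 (log2 0.74, limma adjusted p = 0.0475), with overlapping groups, 2 near-identical copies and islet library 2 far above the others. Without that library its log2 was 0.39 (limma adjusted p = 0.138), and the call was also lost when any 1 of embryonic libraries 1 to 3 or islet library 1 was left out (0.0540 to 0.105). Hspb9 (log2 1.24, limma adjusted p = 0.013) and Hspb7 were low, with a highest value of 15.9 and 45.8 in any library. Hspb7, called lower, was at 0 in islet library 3, without which its log2 of -2.55 was -1.37, and it lost its call when any 1 of the embryonic libraries was left out (limma adjusted p = 0.0536 to 0.0614). Hspb11, an intraflagellar transport subunit in spite of its name, did not pass the test (log2 -0.35, limma adjusted p = 0.0642) but was called lower without embryonic library 3 (log2 -0.47, limma adjusted p = 0.0235). Hspb2 and Hspb3 were not tested.

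Of the heat shock factors only Hsf4 passed the test. Hsf1, the main activator of the heat shock response, had 839, 937 and 801 in embryonic pancreas and 888, 837 and 894 in islets (log2 0.03, limma adjusted p = 0.821). Hsf2 had 1739, 1717 and 1633 against 1616, 1889 and 1877 (log2 0.08, limma adjusted p = 0.461). The groups overlapped in both, as they did for the ratio of Hsf1 to Hsf2 (log2 difference -0.05, exact permutation p = 0.6). With scaling outside the 20 most abundant genes the log2 of Hsf1 was -0.21 and passed the test. Hsf4 (chr8:105269801-105275845, plus strand), known from the lens, was low but higher in every islet library, with 6.72, 4.17 and 12.3 against 67.0, 104 and 119 (log2 3.55, SE 0.40, limma adjusted p = 4.78e-05). Its embryonic values rest on 26 reads over the 3 libraries and its islet values on 277.

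A list of 21 genes taken as induced by heat, 15 of them members, had 7 higher, 7 lower and 7 not called, with a median log2 of 0.07. That is 33.3% higher and 33.3% lower, near the 36.2% and 36.6% of all genes tested. The list also holds Hspa8 and Hsp90ab1, described above as constitutive. The higher genes were Hspa1a, Hspa1b, Hspa4l, Dnajb4, Hspb1, Bag3 and Hspb8. The lower ones were Hsp90ab1, Hspd1, Hspe1, Stip1, Ahsa1, Fkbp4 and Serpinh1, the collagen chaperone, which had 27264 ± 1536 against 1312 ± 291 (log2 -4.40, limma adjusted p = 4.13e-08) beside the mesenchyme markers given above. Islet library 3 was the lowest of the islet libraries in 15 of the 21 genes, and in 24 of the 70 members with an islet mean of at least 100. The 15 members on the list are among those 70, and the share over all genes was not computed. Its value over the mean of islet libraries 1 and 2 had a median of 0.903 over the list and of 1.01 over the 70 members. It was 0.263 in Hspa1b, 0.300 in Hspa1a, 0.542 in Hspb1, 0.560 in Cryab and 0.668 in Serpinh1. In Hspb8 it was 0.680, in Dnajb1 0.759 and in Bag3 0.778, but 0.988 in Hspa4l, 1.06 in Hspd1 and 1.04 in Ahsa1. Immediate early genes, which respond to tissue dissociation, were measured beside these. Of 15 such genes 12 were higher in islets, 1 was lower and 2 were not called, a called share of 86.7% against 72.8% of all genes. Their sums were 9107 to 10491 in embryonic pancreas and 20364, 22596 and 19390 in islet libraries 1 to 3. The part of the isolation step in the inducible chaperones was not tested.

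As shares of all reads assigned to genes, the 82 members took 1.08 ± 0.0763% in embryonic pancreas and 0.719 ± 0.0234% in islets (mean ± SD, n = 3, exact permutation p = 0.1, adjusted 0.138 over 11 groups). CCT genes went from 0.289 ± 0.0207% to 0.121 ± 0.00484%, HSP90 genes from 0.278 ± 0.0138% to 0.122 ± 0.00991% and the mitochondrial chaperonin from 0.0617 ± 0.00913% to 0.0257 ± 0.000115%. HSP70 and HSP110 genes held 0.247 ± 0.0328% and 0.242 ± 0.00826%, with overlapping groups (exact permutation p = 0.9). J proteins of class B went from 0.0257 ± 0.000336% to 0.0348 ± 0.000311%. With the 20 most abundant genes of each group left out of the total the shares of all members were 1.46% and 1.12%. On that total CCT had 0.389% and 0.190%, HSP90 0.374% and 0.191%, and HSP70 with HSP110 0.333% and 0.378%.

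**Figure D5:**
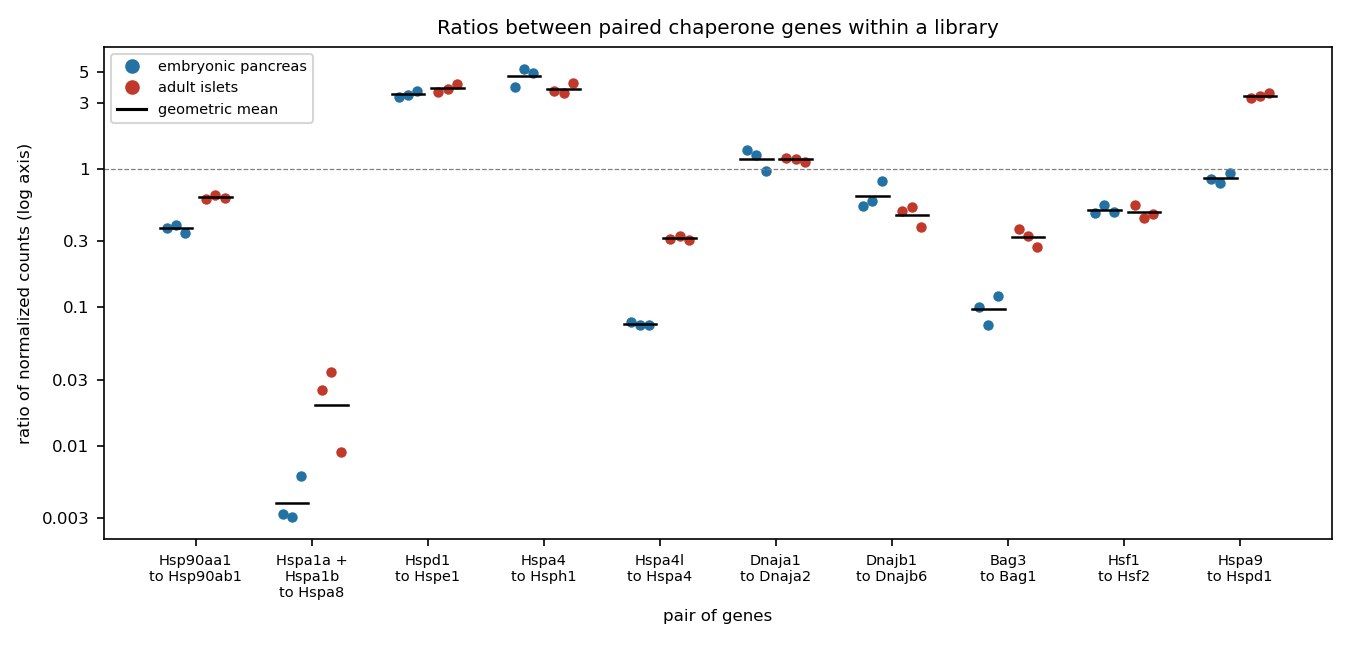
Ratio of normalized counts between paired chaperone genes within each library (log axis), for 9 pairs fixed in the design and for Hspa9 to Hspd1, added after the values were seen. Points are the 3 libraries of each group and lines are geometric means. The ratio of Hspa9 to Hspd1 lies between 0.795 and 0.942 in the embryonic libraries and between 3.27 and 3.53 in the islet ones, while Hspd1 to Hspe1, Hspa4 to Hsph1, Dnaja1 to Dnaja2 and Hsf1 to Hsf2 overlap.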

How the data were processed

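The members and gene lists were chosen with earlier results of these data known. Libraries were made from total RNA with a TruSeq RNA kit, whose strand setting is not given, and sequenced on a HiSeq2000, per the labels' protocols and design. The submitters' processing notes name TopHat 1.3.2, Cufflinks 1.2.1, CASAVA 1.8.2, DESeq2 and the build mm10. Which annotation was counted, and with which counter, is not given in the sources used here. Per the file headers, the authors deposited 1 table with a normalized signal per gene and library, called normalized count here, together with their own log2 fold change and adjusted p-value. The score of the authors' test and their raw p-value were not used. The values of each library were whole multiples of 1 step within 0.01 reads for 100% of values, which gave back the read counts. The step of islet library 2, 0.992, is so near 1 that its values alone do not show this. The 5 rows that name no gene held 40.7 to 54.6% of reads and were left out.

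Genes were tested with limma-trend (limma 3.58.1) on log2(value + 1), a scale that understates the change of low genes, for genes with at least 10 in at least 3 libraries, with Benjamini-Hochberg adjustment over all of them and a threshold of 0.05. The 37761 genes gave 21653 tested ones, and 4 of the tested members were under the minimum in at least 1 library. As alternatives on recovered reads, edgeR 4.0.16 (quasi-likelihood) called 16072 genes and DESeq2 1.42.0 was run. limma-trend and edgeR were also run on simulated data with few changed genes, balanced in direction. Most genes were called in the real data, so that simulation cannot vouch for the test here. Ratios and shares used 2-sided exact permutation tests, where 3 against 3 cannot go below 0.1. Genes named with values followed a rule set with the design: listed core members, and the steepest called members of each family and partner list. Of some lists further members are named, chosen after their values were seen. Positions and exons are from GENCODE M21 on GRCm38, the build called mm10, and all 82 symbols matched. Promoters are from RefSeq (GRCm38.p6), with a window for 65 members. Near-identical copies, searched among GENCODE transcripts, share at least 95% identity over at least 200 coding bases (BLAST 2.17.0), and 12 members have one. Cct6a had no coding sequence to search and was counted among the members without a copy. Another 12-member set, defined by overlap, shares over 10% of exonic length with another gene. Beyond the low reads given, no interval was computed, and precision is that of 3 libraries a group.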

Additional observations from a re-analysis of the deposited data

How the results depend on the processing

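There were 18 alternatives, and some members were not tested under each of them. Of the 56 called members 46 kept call and direction under every alternative that tested them. Of the 23 uncalled members 6 stayed uncalled under every alternative that tested them. Leaving out 1 library ended the call of 5 members and gave a call to 10 others. Whether replicate numbers pair the samples was not settled. Deviations of same-numbered libraries correlated at 0.037, 0.077 and 0.0054. Embryonic library 3 and islet library 1 correlated best with other numbers, and the remaining libraries with their own. All of these correlations were near 0. With the replicate number as a block, 37 members were higher and 19 lower, and the count of lower HSP70 partners went from 1 to 0. Counts by family or list depended on scaling. Without the 20 most abundant genes, lower calls were 28 for all members (18 in the main fit), 9 for J proteins (5), 1 for BAG (0), 2 for HSP90 (1), 1 for heat shock factors (0), 2 for small heat shock proteins (1), 2 for HSP70 partners (1) and 5 for prefoldin and CCT partners (2), and the log2 values of Bag6 and Hsf1 were -0.0042 and -0.21. With quantile normalization, lower calls were 1 for BAG, 4 for HSP70 and HSP110 (2), 2 for HSP90, 0 for small heat shock proteins and 6 for prefoldin and CCT partners, and the log2 values of Bag6 and Hspa8 were -0.034 and -0.64. With upper quartile scaling, higher calls were 5 for BAG (3) and 2 for HSF1 regulators (1), and lower calls 0 for HSP70 partners and 1 for prefoldin and CCT partners. The causes were not tested. With no filter small heat shock proteins had 3 lower calls and prefoldin 1. With a minimum of 50, which tests fewer genes, CCT had 0 higher calls and small heat shock proteins 0 lower. With a pseudocount of 0.1 these lower calls were 0 and those of prefoldin 1. With edgeR they were 2 and 4, and DESeq2 called 36 members higher and 21 lower. With a threshold of 0.01 small heat shock proteins had 2 higher (4) and 0 lower calls, HSP70 partners 0 lower and prefoldin 1. Without embryonic library 3 and islet library 2, chosen after seeing the data, small heat shock proteins had 2 higher and 0 lower calls, HSP90 2 lower, heat shock factors 0 higher, since Hsf4 was not tested, and HSP70 partners 0 lower. Leaving out each library in turn gave 2 to 5 higher calls for BAG, 1 to 2 lower for HSP90, 2 to 3 higher and 0 to 1 lower for small heat shock proteins, 0 to 1 lower for HSP70 partners, 1 to 3 lower for prefoldin and 1 to 2 higher for HSF1 regulators.

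With the 20 most abundant genes out of the total, the differences in share of reads (islets minus embryonic pancreas, percentage points) were 0.000843 for BAG (-0.00352 in the main fit), -0.200 for CCT (-0.168), 0.0445 for HSP70 and HSP110 (-0.00518), -0.183 for HSP90 (-0.156), 0.00478, 0.0197 and 0.0199 for J proteins A, B and C (-0.00169, 0.00909 and -0.00185), -0.000842 for heat shock factors (-0.00156), -0.0431 for the mitochondrial chaperonin (-0.0360) and 0.00257 for small heat shock proteins (0.00120). The denominator alone differs between these values.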
